A study of Mus musculus with 2 samples.

Results

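Suffix models are transcript models that, as the class is named, share the last introns of an annotated transcript and lack its first exons. Most, but not all, of those described here met this on the M21 annotation. They form the Suffix subtype of the incomplete splice match class in the count tables of long-read RNA sequencing of mouse gastrocnemius, a calf muscle. The models described here lie in annotated mouse genes and had at least 5 reads in either library. Models were matched between the libraries by chromosome, strand and chain of introns. There were 2264 such models in 1069 genes, of 20882 suffix models with any read and of 17467 models of every class with at least 5 reads in either library. The members were chosen by their read counts, the values also described here, so their number is given without a test: 398 suffix models had exactly 5 reads in the deeper of their counts and were kept, and 613 had 4 reads and were not. Of the members, 1914 had reads as suffix models in both libraries, 34 in replicate 1 only and 316 in replicate 2 only.

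Both libraries were made from total RNA (2 µg each) of gastrocnemius from female B6CASTF1/J mice, the first-generation hybrid of C57BL/6J and CAST/EiJ, aged 36 days. The labels call them biological replicates 1 and 2 and give each its own female number and tissue entry, under a shared donor entry and without treatment. They form 1 group, so no condition was compared, and every test below compares these 2 libraries and not conditions. Annotated mouse genes held 797105 reads in replicate 1 and 1602272 in replicate 2. The tissue label was checked against defining genes: Ckm, Acta1 and Myh4 were among the genes with most reads (Myh4 had 14491 and 17527), while the liver gene Alb had 1 read in each and the glial Gfap, the pancreatic Ins2 and the atrial Nppa had 0.

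As background, a messenger RNA is spliced from exons in order from its 5' cap to its poly(A) tail, and a long read that covers the whole molecule shows the full chain. A read that holds only the last exons can come from a transcript that begins at an inner promoter or from a molecule copied or kept only in part, and counts per model cannot tell these apart. Skeletal muscle is known for very long messages, such as those of titin, nebulin and the myosin heavy chains, and for very abundant short ones, such as those of actin, the troponins and the creatine kinase.

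Members are described by the exon at which they begin. For some models with many reads, the sequence at that junction places the deposited start in the message. Each line gives, 5' to 3', the last 30 bases of the exon before in lower case, which the model lacks, and the whole first exon that the model keeps in capitals. All are coding exons in GENCODE M21 transcripts (mm10). They are starts from among the members with most reads whose first exon has at most 200 bases. Only members with a deposited start on the exon's 5' end were taken, so the start at an exon boundary is set by this choice.
Hrc: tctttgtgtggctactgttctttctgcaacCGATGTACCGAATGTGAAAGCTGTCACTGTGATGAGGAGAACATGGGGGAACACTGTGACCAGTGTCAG
Myh4: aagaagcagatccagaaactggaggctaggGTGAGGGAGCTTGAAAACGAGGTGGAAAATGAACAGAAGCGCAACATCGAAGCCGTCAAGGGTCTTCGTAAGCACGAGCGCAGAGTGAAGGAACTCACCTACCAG
Ndufa4: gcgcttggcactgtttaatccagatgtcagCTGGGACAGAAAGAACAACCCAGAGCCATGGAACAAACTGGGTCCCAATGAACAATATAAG
Ndufs7: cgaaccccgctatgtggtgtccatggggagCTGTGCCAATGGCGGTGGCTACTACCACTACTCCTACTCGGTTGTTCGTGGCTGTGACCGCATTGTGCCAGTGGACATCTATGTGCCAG
Acta1: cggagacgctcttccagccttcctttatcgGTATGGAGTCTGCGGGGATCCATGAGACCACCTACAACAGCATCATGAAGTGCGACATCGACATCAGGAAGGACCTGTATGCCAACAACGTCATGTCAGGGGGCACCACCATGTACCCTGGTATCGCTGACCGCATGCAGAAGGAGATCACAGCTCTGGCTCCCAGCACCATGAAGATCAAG

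For Hrc, which encodes the histidine-rich calcium-binding protein of the sarcoplasmic reticulum, the capitals are exon 3 of 6 of Hrc-201 (chr7:45337887-45337955, plus strand). For Myh4, the fast glycolytic myosin heavy chain, they are exon 37 of 39 of Myh4-201 (chr11:67259083-67259187, plus strand), near the end of the part that encodes the rod of the protein. Ndufa4, a subunit of cytochrome c oxidase, began at exon 4 of 5 of Ndufa4-204 (chr6:11905202-11905262, minus strand). Ndufs7, an iron-sulfur subunit of complex I, began at exon 8 of 9 of Ndufs7-202 (chr10:80255924-80256012, plus strand). The Acta1 line, for skeletal actin, shows exon 6 of 7 of Acta1-201 (chr8:123892229-123892410, minus strand). This is not the leading start of Acta1, which is exon 3 (922 and 1594 reads). The first exon kept differed in length from 61 bases in Ndufa4 to 182 in Acta1, and its GC content ran from 45.9% in Ndufa4 to 56.2% in Ndufs7. Over 2068 members that could be compared with the other inner exons of their transcript, the first exon kept had a median length of 141 bases against 123 for the others. It was longer than the median other exon in 1278 members (61.8%) and richer in GC in 1231 (59.5%), with median GC of 54.5% and 53.2%. Members of the same gene share exons, so these shares are given as a description.

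Of the reads in annotated genes, member models took 6.73% in replicate 1 (53622 reads, exact Clopper-Pearson 95% interval 6.67 to 6.78) and 9.26% in replicate 2 (148301 reads, 9.21 to 9.30), a mean of 7.99% ± 1.79 (SD, n = 2). These intervals hold counting error alone, because the counted reads were not shown to be separate molecules. The minimum was met in replicate 1 by 1042 members and in the deeper replicate 2 by 2113, so it favours replicate 2 in these shares. The members held 82.7% of the 64853 suffix reads in replicate 1 and 88.6% of the 167423 in replicate 2. The models under 5 reads, though many more, thus held the smaller part. With all suffix models of at least 1 read the mean share was 9.29%. Prefix models, which keep the 5' end and lack the 3' end, were rare beside suffix models: 124 passed the same read minimum, with 0.231% and 0.228% of the reads.

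The 3' ends matched the name of the class. The deposited 3' end lay exactly on an annotated transcript end in 2064 members (91.2%) and within 100 nt of an annotated end in 2075 (91.7%), and 2049 of 2094 members with a coding parent transcript (97.9%) kept its stop codon. The parent is the annotated transcript whose last introns are the model's introns. A kept stop codon therefore follows largely from how the parent is chosen. At the 5' end, 1977 members (87.3%) began on the 5' end of an annotated exon, but only 534 (23.6%) on an annotated transcript start and 541 (23.9%) within 100 nt of it. The deposited ends therefore sit mostly on annotated coordinates rather than at the base where a read stopped. Where a member was in both libraries, its 5' end was the same in 1561 of 1914 (81.6%) and its 3' end in 1432 (74.8%). The 353 members with differing 5' ends differed by a median of 122 nt. A start is therefore known to the exon, and the exons kept and the first splice donor are the firmer measures.

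Along the gene, members began at a median of 34.8% of the length of the gene's longest Known chain (quartiles 16.2 and 56.0%). That chain is the annotated transcript with most exons that had reads of its own, and it existed for 2124 members, while 140 members lay in 66 genes without any read in a Known model. In some genes the chain was short beside the full transcript. An Atp2a1 member that starts at 49.8% of Atp2a1-201 counted at 0% of the 681-base Atp2a1-202. A Ttn member at 95.0% of Ttn-203 counted at 100% of Ttn-207. Of the 2124, 1804 ended in exactly the last introns of that chain, and for these the start was at 37.0% (19.1 to 56.5) and the first splice donor at 46.3% (28.5 to 65.5). They kept a median of 50% of the exons (30 to 75). A median of 736 bases of the longest chain lay upstream of the start over these 1804. The typical member had 5 exons (quartiles 3 and 8) and a spliced length of 1200.5 nt, with extremes of 121 and 11483 nt and up to 41 exons.

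Models and reads were spread differently. By 20% steps along the chain, 476, 495, 462, 283 and 88 of the 1804 members began in successive steps from the 5' to the 3' end. The last step held 4.88% of these members but 11.3% of their reads in replicate 1 and 18.9% in replicate 2. The leading members of Hrc and Myh4 made up 69.1 and 81.8% of the reads of that step, and without them it held 3.77 and 4.07%. Models of 2 exons numbered 446 (19.7%) and held 23.9% and 30.1% of member reads. Models of 2 to 4 exons held 51.3% of member reads in replicate 1 and 71.0% in replicate 2, whereas models of 10 or more exons, 450 in number (19.9%), held 24.9% and 8.55%. Replicate 2 thus had its suffix reads in shorter chains, with a read-weighted median of 3 exons against 4, and a start at 45.2% against 36.4% of the chain.

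**Figure D1:**
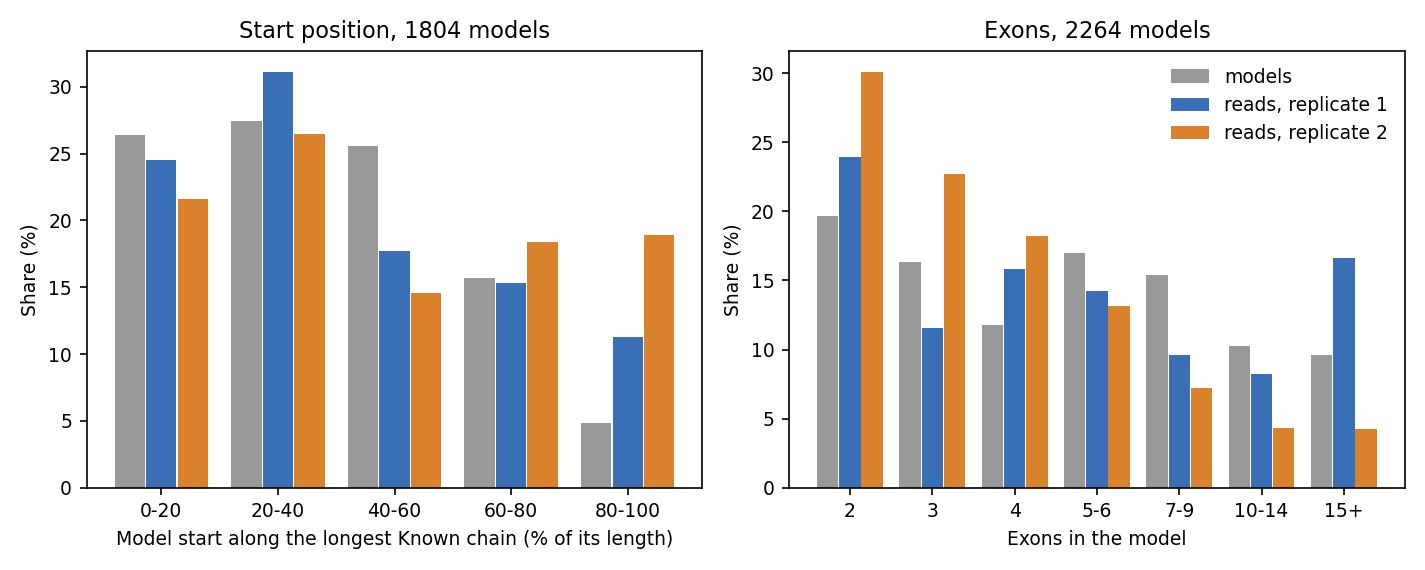
Left, share of models and of member reads in each library by start position along the longest Known chain, in steps of 20% of its length, for the 1804 members that end in its last introns; right, the same by number of exons for all 2264 members. Grey bars are models, blue and orange bars are reads of replicate 1 and replicate 2. In the last position step orange reaches 18.9% where models make up 4.88%, and in the class of 15 or more exons blue reaches 16.6% and orange 4.25%.

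What the members kept of the protein varied. Of the 2094 members with a coding parent, 1868 (89.2%) began past its start codon and kept a median of 45.1% of the coding sequence (23.5 to 70.5). The other 226 (10.8%) kept the coding sequence whole, and held 12.6% and 10.6% of the reads of these members. Members that lacked only the first exon of the parent numbered 380 of 2111, with 16.9% and 14.3% of the reads. Relative to the parent's exon, 1360 members began at its 5' end, 373 inside it and 378 upstream of it. Of the 378, 151 began inside an earlier exon of the parent and 227 in one of its introns, where 185 lay in an exon of another transcript of the gene. A first exon that begins upstream in this way covers all or part of an intron of the parent, so first exons are numbered here by the exon that holds the model's first splice donor. A further 153 members (6.76%, 4.02% of member reads) matched the end of no annotated transcript of M21, among them the leading model of the calcium-store protein Trdn. In 104 members there were at least as many exons as in the longest Known chain, and 42 of these started on an annotated transcript start. By definition, a member with so many exons cannot be a suffix of that chain.

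The reads were concentrated in few genes, most of them muscle genes. The 15 genes with most member reads held 57.6 and 61.0% of member reads, and 706 of the 1069 genes had a single member. At the other end, 27 genes had 10 or more members, led by Myh4 with 43, Myh1 with 26, Mybpc2 with 25 and Myh2 with 23. In 43 genes with at least 2 members and 100 member reads in each library, the leading member was the same in both libraries in 38 (88.4%). Its median share of the gene's member reads was 61.0 and 64.8%. In 10 of the 43 genes it held 90% or more in both libraries, and in 13 it held under 40% in both. Starts at a single exon and starts at nearly every exon thus both occurred.

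**Figure D2:**
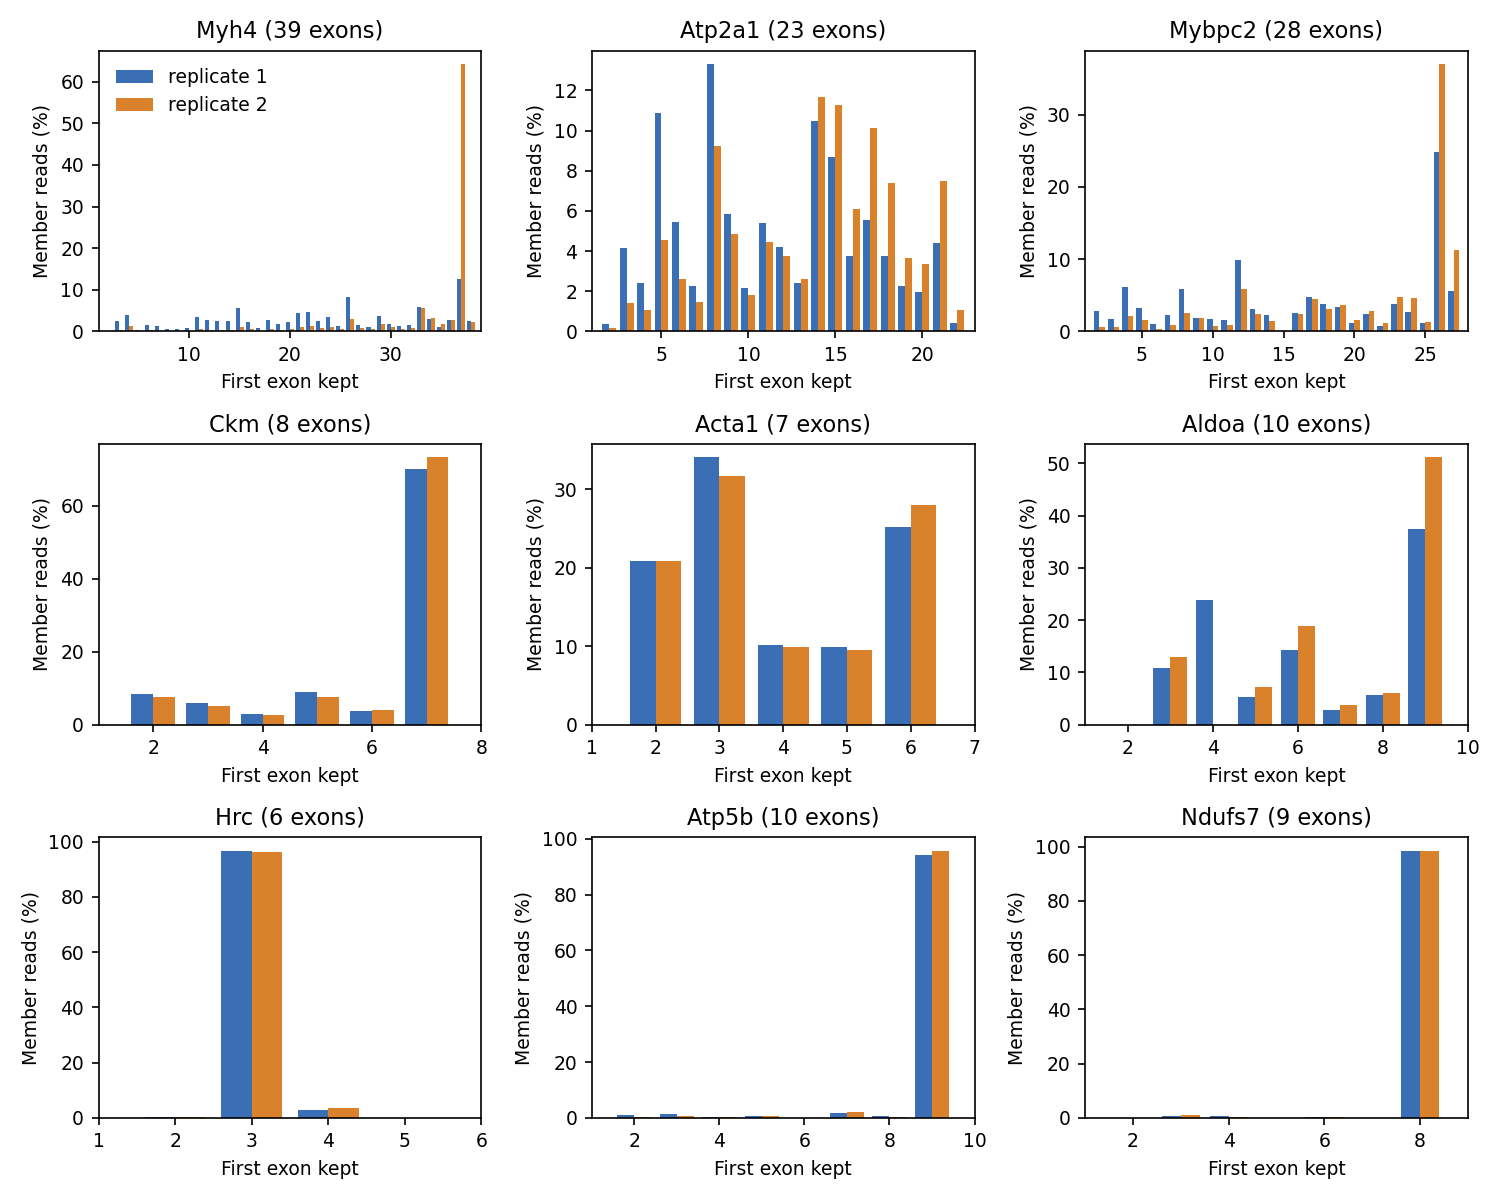
Share of a gene's member reads (y axis, %) by the exon that holds the model's first splice donor (x axis, numbered along the annotated parent transcript) in 9 genes, blue for replicate 1 and orange for replicate 2. Myh4, Atp2a1 and Mybpc2 have first exons at most exons, Ckm, Acta1 and Aldoa at most of their few exons, and Hrc, Atp5b and Ndufs7 have nearly all their reads at 1 exon.

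Among the contractile genes, Myh4 had first exons at 36 of the 37 exons where a suffix model of Myh4-201 could begin. Its member that keeps only exons 37 to 39 had 925 reads in replicate 1 and 9201 in replicate 2, which is 6.38% and 52.5% of all reads of the gene. It begins at 92.4% of the chain and keeps 6.03% of the coding sequence. The other Myh4 members together held 44.9 and 29.4% of the gene's reads, so the leading start was higher in replicate 2 while the rest was lower. Reads of Known models of Myh4 were 2494 and 714. Of the reads of members of the Myh4-201 chain, those that began in the 5' part of its exons (up to the middle exon) made up 35.2% in replicate 1 and 6.64% in replicate 2. Exon 26 was the next most used start in replicate 1, with 611 and 423 reads, and exon 33 in replicate 2, with 431 and 808.

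Mybpc2, the fast myosin-binding protein C, showed the same spread of starts, at 25 of 26 possible exons. Its leading member, of 3 exons, had 311 and 591 reads and began at 87.0% of Mybpc2-201. Acta1, the actin of the thin filament, used all 5 possible exons: 563 and 1048 reads began at exon 2, 922 and 1594 at exon 3, 275 and 498 at exon 4, 267 and 477 at exon 5 and 680 and 1407 at exon 6. These are nearly the same shares of Acta1 member reads in both libraries, for example 34.1% and 31.7% at exon 3. Members made up only 4.58% and 5.16% of the 59871 and 97633 reads of Acta1. Myl1, a fast essential light chain of myosin, had 10 members with 10.5% and 13.2% of its reads, and the leading one, of 4 exons, had 1337 and 3813 reads. Actn2, the sarcomeric actinin, had its main start at exon 13 of Actn2-203, with 43 and 642 reads or 75.4% and 76.7% of the reads on that chain.

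Tnnt1, the slow troponin T, was nearly absent from replicate 1, with 7 reads in all against 6922 in replicate 2. A single member that keeps the last 3 exons of the 14 in Tnnt1-203 had 5 and 6537 of them, 71.4% and 94.4% of the gene's reads. In bulk tissue, more cells of a type and more RNA per cell cannot be told apart. The longest Known chain of this gene with a read was the 4-exon Tnnt1-202, where the model starts at 0%. Its deposited 5' end lies on an annotated transcript start of the gene. On the longer Tnnt1-203 it starts at 65.7%, with a first exon that begins upstream of exon 12. Tnnt1 had too few reads in replicate 1 to enter the test of shares.

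Of the genes of calcium handling, Hrc and Trdn had most member reads in a single model and Atp2a1 had starts all along the gene. Hrc had 2387 reads in replicate 1 and 9468 in replicate 2 in the member that begins at exon 3, 93.0% and 93.8% of all its reads, and only 64 and 123 reads in Known models. This member keeps 4 of 6 exons (66.7%) but begins at 89.4% of the chain, since the exons it lacks hold 2156 of the 2411 bases, and it keeps 8.81% of the coding sequence. Counting exons and counting bases thus gave opposite pictures of the same model. Trdn, or triadin, which ties the calcium store to its release channel, had 523 and 2810 reads in a 5-exon member whose chain ends no annotated transcript. Ryr1, the release channel itself, had 19 members with 90.4% and 85.6% of its 523 and 888 reads and no reads in a Known model. Its leading member, with 191 and 207 reads, held 16 of the 109 exons of Ryr1-208. Atp2a1, the calcium pump of fast fibres, had first exons at all 21 possible exons and members with 3.56% of its 87684 and 7.75% of its 48342 reads. It had 0 and 1 reads in Known models, so most of its other reads lay in models of other classes. Its most used starts were exon 8 in replicate 1, with 416 and 346 reads, and exon 14 in replicate 2, with 327 and 438.

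The mitochondrial genes showed both a start near the 3' end and models that lack only the first exon. Atp5b, the catalytic beta subunit of the ATP synthase, had 1475 and 8733 reads in a member of its last 2 exons, which begins at 70.0% of Atp5b-201 and held 94.4% and 95.7% of its member reads. Ndufa4 had 1258 and 6436 reads in a member of its last 2 exons, nearly all of its member reads (99.7% and 99.8%). Ndufs7 had 543 and 3410 reads in the member that begins at exon 8 of 9, or 98.5% and 97.2% of its member reads. In Ndufa13, another complex I subunit, the leading member lacked only exon 1 of Ndufa13-201 and kept the whole coding sequence, with 843 and 2655 reads of the gene's 866 and 2755. Atp5j, the coupling factor of the ATP synthase, had 735 and 2535 reads in such a model and Atp5f1, a stalk subunit, 444 and 1822. The deposited start of this Atp5j model lay on an annotated transcript start, and that of the Ndufa13 model 826 nt from one. Ndufa13 and Atp5f1 had 0 reads in Known models. Members made up 97.2% ± 0.677 of the reads of Ndufa13 and 80.7% ± 0.158 of those of Atp5j (SD, n = 2), while those of Atp5b spread from 55.5 to 74.3%.

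Among the enzymes of energy supply, Ckm, the muscle creatine kinase, had first exons at all 6 possible places. The member that keeps only the last intron of Ckm-203 led with 3093 and 6094 reads. Its deposited start was the 5' end of exon 7 in replicate 1 and that of exon 6 in replicate 2, 668 nt upstream, so that its first exon there also covers the intron between them. Members were 6.66% of its 66217 and 8.46% of its 98287 reads. Aldoa, the muscle aldolase, had 487 and 1004 reads in its 2-exon member. Known models held only 3.91% and 8.48% of its reads. Against Known reads alone its suffix share was 69.52 and 52.75%, called lower in replicate 2 (adjusted Fisher's exact p = 9.5e-32). A 7-exon member of Aldoa, whose first exon begins upstream of the parent's exon 4, had 309 reads as a suffix model in replicate 1 and 0 in replicate 2. Aldoa had more reads in all in replicate 2 (21499 against 14680). Only models of the Suffix subtype were counted, so reads of the same chain under another class would be missed. Pfkm, the muscle phosphofructokinase, stood apart in this group, with 1187 and 1213 reads in a 22-exon member that lacks only exon 1 of Pfkm-201 and keeps the coding sequence whole. Suffix models of any read number held 79.7% and 79.1% of the reads of Pfkm. Pgam2, a phosphoglycerate mutase, had 626 and 1716 reads in its only member.

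**Figure D3:**
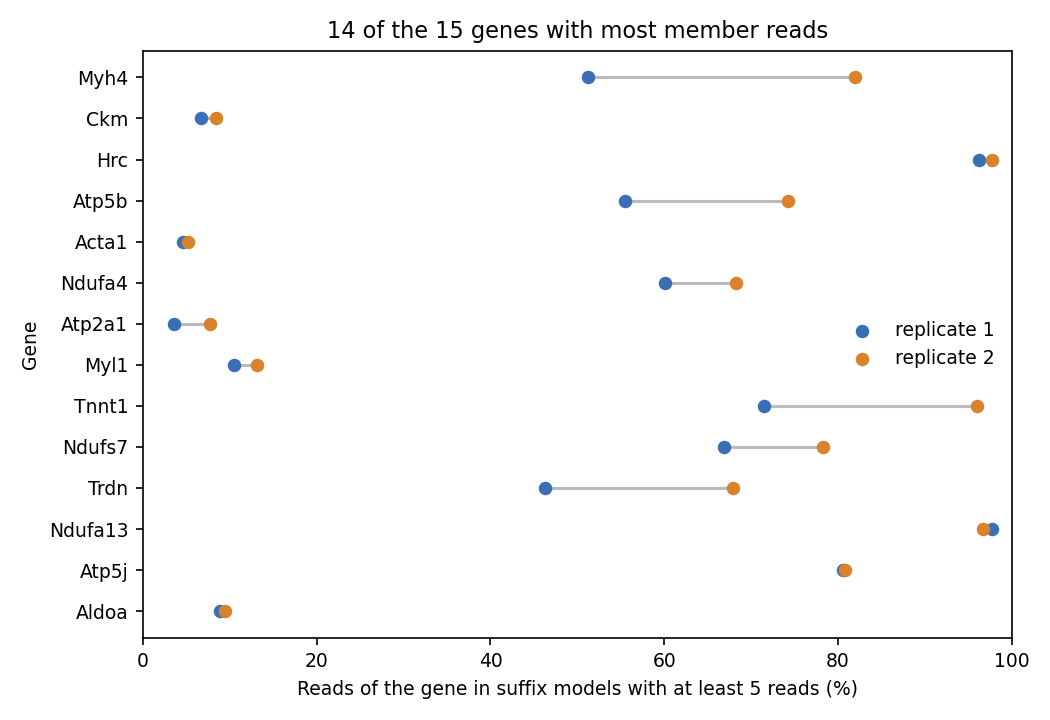
Share of all reads of the gene (x axis, %) held by its suffix models with at least 5 reads, for 14 of the 15 genes with most such reads, blue for replicate 1 and orange for replicate 2. Hrc and Ndufa13 lie at 96.2% or above in both libraries, Acta1, Atp2a1, Ckm and Aldoa at 9.42% or below in both, and Myh4 runs from 51.3 to 81.9%. Most reads of Acta1 and Ckm were in Known models, but few of those of Atp2a1 and Aldoa were.

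Beyond Myh4, Mybpc2 and Atp2a1, the genes with most members were led by Myh1 and Myh2. Myh1, a fast heavy chain of fibres between the glycolytic and oxidative kinds, had 21 and 657 member reads in its 26 members, 32.8 and 54.1% of its 64 and 1214 reads. Myh2, the oxidative fast heavy chain, had no reads in replicate 1 and 334 member reads among 554 in replicate 2, so its 23 members rest on replicate 2 alone. Tnnt3, the fast troponin T, had 811 and 2217 reads in 21 members, none of which held over 22.9% of them in either library. The M-band protein Myom2 had 131 and 94 reads in 20 members of 5 to 37 exons, and the fast actinin Actn3 731 and 907 in 18. In the deeper replicate 2, Myom2 thus had fewer member reads and the others named here more.

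Models that keep the whole coding sequence appeared in smaller genes too. Banf1, a DNA-binding protein of the nuclear envelope, had 45 and 190 reads in a 2-exon member without exon 1 of Banf1-201. Psmc2, an ATPase of the proteasome, had 65 and 151 in a 12-exon member, and Atp5g3, a ring subunit of the ATP synthase, 23 and 149. Pacsin3 had 64 and 76 reads in a 10-exon member of this kind, whose deposited start lay on an annotated transcript start. In Acta1, Ckm and Myh4 the whole coding sequence was kept by 563 and 1048, 372 and 635, and 188 and 47 reads, so Myh4 was the gene among these 3 with fewer such reads in the deeper library.

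Some of these genes have near copies, to which reads of a short 3' model could also belong. The share of 25-nt words of the leading member that also occur in transcripts of other annotated genes was 38.2% for Myl1 (mostly Mylf-ps), 35.1% for Atp5f1, 18.8% for Myh4 (14.7% for Myh1, the closest) and 0 for Hrc, Ckm, Tnnt1 and Ndufs7. It was 13.8% for Ndufa13, 12.7% for Atp5b, 10.9% for Acta1 and Atp5j and 10.3% for Ndufa4. Levels of Myl1 and Atp5f1 members are therefore uncertain, and those of Myh4 and of the genes just named to a lesser degree.

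Across genes, the share of reads in suffix models was mostly low and alike in both libraries. Over the 3204 annotated genes of 20 or more reads in both libraries, counting suffix models of any read number, the median share was 2.99% in replicate 1 (quartiles 0 and 7.69%) and 3.20% in replicate 2 (0.463 and 9.09%). Across genes, the shares in the libraries correlated (Pearson r = 0.888, Spearman rho = 0.740). No p is given, since genes are no replicates and both libraries share the annotation that defines the class. In 52 genes (1.62%) suffix models held at least 50% of reads in both libraries. Besides those named above, these included the mitochondrial kinase Pink1 (58.8 and 73.6%), the fatty acid carrier Fabp4 (76.6 and 78.2%), the proteasome subunit Psmc2 (94.4 and 98.8%), nebulin (Neb, 52.6 and 53.4%) and the collagen chain Col1a2 (74.3 and 60.1%).

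Replicate 2 had a higher suffix share than replicate 1 in 28 genes (0.874% of those tested) and a lower one in 15 (0.468%), by Fisher's exact test, two-sided, with Benjamini-Hochberg adjustment over the 3204 genes, an adjusted p under 0.05 and a difference of at least 10 percentage points. With multi-exon reads alone as the total, 48 were higher and 5 lower. Single-exon models took 9.18 and 16.2% of reads in annotated genes, and their share is given below for the genes where they were many. Of the 1069 genes with members 874 could be tested, of which 27 (3.09%) were higher and 11 (1.26%) lower. These genes have members because their suffix reads are many, and nothing is read from these counts beside those over all genes.

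The 8 largest rises, among called genes of 100 or more reads in both libraries, began with Myh4. It rose from 52.2% to 82.5% (7568 of 14491 and 14463 of 17527 reads), with an adjusted Fisher's exact p of at most 3.2e-297. Lmna, which encodes the lamins A and C, rose from 38.1% to 67.0% (adjusted exact p = 5.0e-06), with 41 and 294 of its reads in a single 2-exon member. Mybpc2 rose from 23.4 to 45.3% and Trdn from 48.4 to 69.4%. Actn2 rose from 31.7 to 51.3% and Atp5b from 55.5 to 74.3%. The ubiquitin ligase Wwp1 (22.7 to 42.0%, adjusted exact p = 0.011) and the RNA-binding protein Hnrnpa2b1 (48.6 to 66.2%) completed these. The rise of Trdn did not pass with Known reads alone as the other reads (95.4 and 97.7%). Atp2a1 (3.59 and 7.79%), Ckm (6.67 and 8.48%) and Hrc (96.2 and 97.7%) passed on the adjusted p but differed by less than 10 points, so they were not called.

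Of the 8 largest falls, 3 were in the list of giant and large cytoskeletal proteins, among them Plec and Ttn. Cdh13, a cadherin without a cytoplasmic part, fell from 93.8 to 62.3% (adjusted exact p = 1.3e-07). Its leading member lacks only exon 1 of Cdh13-201 and had 98 and 84 reads. Plec, the cytoskeletal linker plectin, fell from 14.5 to 1.23%, the M-band protein Myom1 from 24.2 to 11.5% and Ttn, or titin, from 30.1 to 17.9%. Single-exon models held 84.0 and 98.4% of the reads of Plec, 39.8 and 78.4% of those of Myom1 and 33.9 and 60.2% of those of Ttn. Among multi-exon reads Ttn was at 45.5 and 45.1%, with no call, and Myom1 at 40.2 and 53.3%, with no call and the opposite direction. Against Known reads alone Myom1 was higher in replicate 2 (42.1 and 58.0%, adjusted exact p = 0.041). Plec then had too few reads to test. Arfgap2, a regulator of Arf proteins in the Golgi, fell from 46.9 to 28.3%, and the membrane-shaping Pacsin3 from 51.9 to 34.6%. Pacsin3 was not called against Known reads alone (84.6 and 74.5%, adjusted exact p = 0.48). The fatty acid elongation enzyme Tecr fell from 74.0 to 62.7%, a call that was lost among multi-exon reads, where the difference was under 10 points (78.2 and 68.6%).

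**Figure D4:**
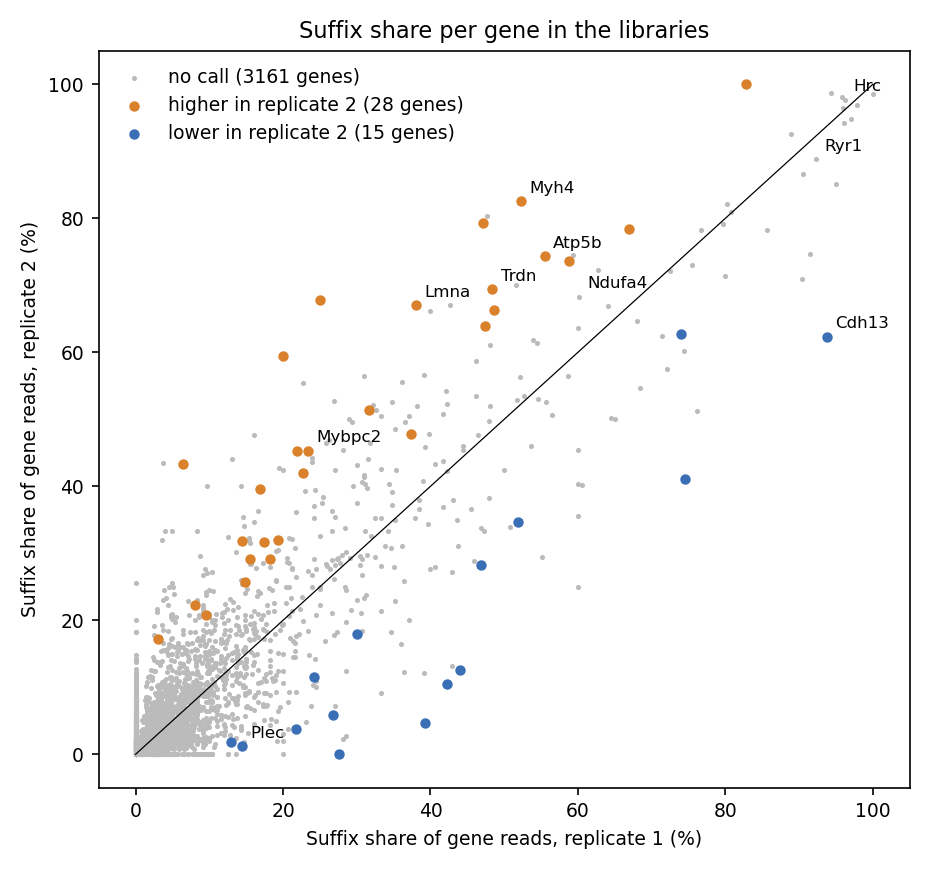
Share of a gene's reads in suffix models in replicate 1 (x axis, %) and replicate 2 (y axis, %) for the 3204 tested genes; the line marks equal shares, orange points are the 28 genes higher and blue points the 15 genes lower in replicate 2. Most genes lie near the lower left corner, Myh4 lies at 52.2 and 82.5%, and Cdh13 at 93.8 and 62.3%.

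Gene lists put these values side by side, as counts without a list test. In the fast sarcomere list, all 13 genes had members (216 models), and suffix models held 8.20 and 12.5% of the list's reads. Of 12 tested genes 2 rose, Myh4 and Mybpc2, beside 0.874% of all tested genes. Tnni2, the fast troponin I gene, was at 16.9 and 24.0%. The slow sarcomere list had 71 and 8531 suffix reads, 23.4 and 47.4% of its reads, with Actn2 higher among 2 genes tested. Its gene Myh7, the slow heavy chain, had 0 reads in replicate 1 and 318 suffix reads among 590 in replicate 2. In the list of giant and large cytoskeletal proteins, 11 of 20 genes had members, the suffix share was 33.2 and 21.3%, and 3 of 14 tested genes fell, among them Plec and Ttn, beside 0.468% of all tested genes. The call of Ttn is absent among multi-exon reads, and single-exon models held most reads of Plec, as given above. The median difference over the tested genes of that list was -9.01 points, against 0 over all 3204. In the calcium list 1 of 18 tested genes rose, Trdn. Its share went from 7.00 to 22.2%, and it holds Atp2a1, whose reads were fewer in replicate 2, and Hrc.

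The counts of rises in the next lists also stand beside 0.874% of all tested genes. In glycolysis and glycogen use suffix shares were 11.5 and 11.7%, and 3 of 20 tested genes rose: the glycogen enzymes Gys1 and Pygm and the kinase Pgk1. Pygm, the muscle glycogen phosphorylase, was at 37.3 and 47.8%. Of 24 tested genes of nuclear encoded respiration 1 rose, Atp5b, and the list's share was 16.5 and 21.5%. Its ATP synthase subunit Atp5c1 was at 17.7 and 19.4%, with no call. None of 17 citrate cycle genes was called, with the dehydrogenase subunit Ogdh at 26.7 and 36.3%. Ampd1, the muscle AMP deaminase, rose in the list of creatine and nucleotide buffering. In collagens and matrix Col3a1 rose (14.8 to 25.8%, Fisher's exact test, adjusted p = 0.047) and Col4a2 fell. No gene was called among 22 ribosomal and elongation genes, where Eef2 was at 31.0 and 41.6%. Rplp0 there passed on the adjusted p (0.014, Fisher's exact test) but not on the difference (4.56 and 9.63%). None was called among 13 of the neuromuscular junction and membrane or among 18 of protein turnover.

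Markers of other cell types added little to the members. The lists of blood, endothelial, Schwann cell, immune, satellite cell and pericyte markers had no member at all, and the summed suffix reads of these 6 lists ran from 1 to 23 in replicate 1 and from 1 to 18 in replicate 2. Low read numbers limit how many models of these lists can reach 5 reads. The blood list took the largest part of the reads in annotated genes, 0.256 and 0.0554%, with the lowest suffix share, 0.245 and 0.225%. That share was 17.6 and 26.8% for satellite cell, 15.2 and 6.32% for pericyte and 10.8 and 9.63% for endothelial markers. It was 1.75 and 0.397% for Schwann cell and 2.63 and 3.42% for immune markers. The adipocyte list had members in 3 genes, Fabp4, Car3 and Cfd, and suffix shares of 5.53 and 5.14%.

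Genes with the longest Known chains had the largest suffix shares. Over 3004 tested genes with a multi-exon Known chain, genes with a chain under 1 kb had 4.78% of their reads in suffix models in replicate 1 and 6.96% in replicate 2, and genes with 5 kb or more had 30.9 and 37.5%, although the class of 3 to 5 kb lay under that of 2 to 3 kb (8.97 and 9.22% against 9.22 and 12.5%). Per gene the trend was milder: the median share ran from 0.685 and 1.13% in the shortest class to 6.90 and 6.25% in the longest. The rank correlation with length was 0.264 and 0.253 across genes, which share the libraries and are not replicates. The pooled value of the longest class rests on Myh4, which held 14491 of its 33720 and 17527 of its 50326 reads. Without Myh4 it was 14.9 and 13.4%. Some genes were classed by a short chain, since only Known chains with reads were used. Atp2a1 counted in the shortest class by Atp2a1-202 (681 bases), although Atp2a1-201 has 3477 bases. It gave 87684 of the 239595 and 48342 of the 473145 reads of that class, at suffix shares of 3.59 and 7.79%. Ttn was likewise classed by Ttn-207 (3513 bases).

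**Figure D5:**
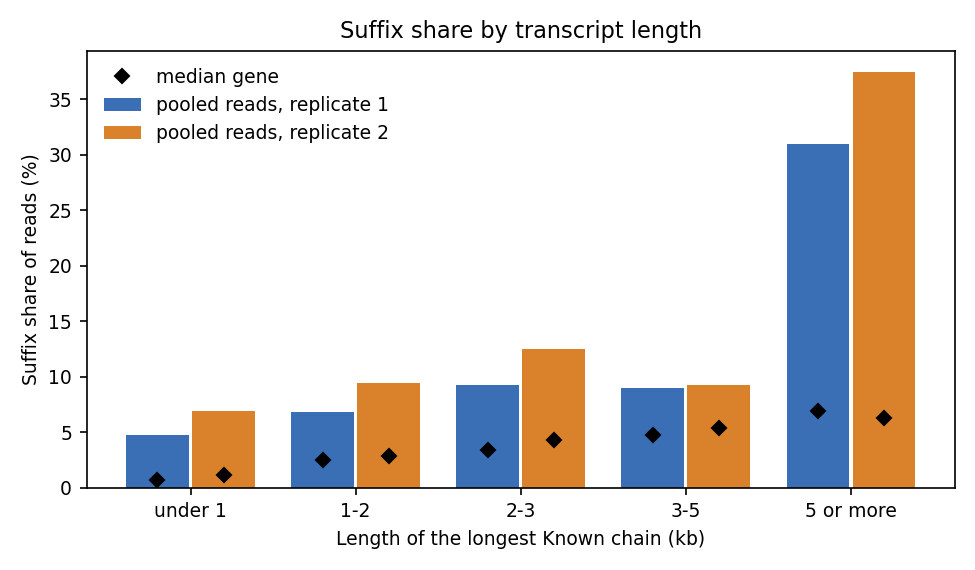
Share of reads in suffix models (y axis, %) by length of the gene's longest Known chain (x axis, kb), with bars for the pooled reads of each library and diamonds for the median gene. Bars reach 30.9 and 37.5% in the longest class, while the diamonds there stand at 6.90 and 6.25%.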

How the data were processed

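Long-read RNA sequencing counts were analysed for both libraries. The authors deposited, for each library, whole-number read counts per transcript model, not normalized, and a transcript annotation, made from alignments to mm10 with GENCODE M21, per the README beside the files. The number of exons and the spliced length of each model are the authors' deposited values and matched the deposited annotation. The annotation names TALON models; the sources used here do not give the aligner, read correction or filters. Suffix models with at least 5 reads in either library were kept; the 2 libraries were matched by intron chain. The suffix share of each gene was compared between libraries (Fisher's exact test, two-sided, Benjamini-Hochberg adjustment over genes of 20 or more reads in both), and the procedure was tested on simulated data. A p compares 2 libraries of 1 group, whose spread may be technical.

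Named genes are the 15 with most member reads, the 8 with the largest rise and the 8 with the largest fall among called genes of 100 or more reads in both, and up to 4 of each gene list with most suffix reads; other called or suffix-led genes were named after their values were seen. Members, lists and tests were chosen with earlier results of these data known. Alternatives were another read minimum, other reference chains, another total and another test, and each library alone. Depth was 797105 and 1602272 reads. Software was Python 3.11.15, numpy 2.4.6, pandas 2.3.3 and scipy 1.17.1. Some genes that these rules select are not reported here.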

Additional observations from a re-analysis of the deposited data

How the results depend on the processing

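The number of models followed the read minimum: 1140 with at least 10 reads in either library, 891 with at least 5 in each and 20882 with at least 1 read, and 1042 to 2113 with 1 library left out. The share of reads in suffix models moved by less than the spread between libraries under every alternative run, with 6.47 to 9.24% when 1 library was left out. That spread is the SD of the same 2 libraries. Values with 1 library left out therefore fall inside it nearly by construction, and nothing is read from this. The median start was 46.3% at the first splice donor and 39.1% on the parent transcript, both chosen after seeing the data, and 29.9 to 36.0% with 1 library left out. Exons kept were 50 to 60% then. Ends near an annotated end were 93.9% with at least 10 reads and 93.5% with at least 5 in each library (91.9 to 92.4% with 1 library left out). Starts near an annotated start were 22.9% with at least 5 reads in each (22.7 to 23.9%). Genes higher in replicate 2 numbered 10 and genes lower 7 with a minimum of 20 points, 51 and 4 against Known reads only, and 48 and 5 among multi-exon reads. Of the 28 higher genes, 22 were also called against Known reads only and 27 among multi-exon reads, and of the 15 lower genes 3 and 5. Only 2446 genes could be tested against Known reads and 2632 among multi-exon reads. A gene without Known reads, such as Cdh13, is then at 100% in both libraries against Known reads and cannot be called. The cause of the calls was not tested. No paired analysis was possible because the libraries form 1 group. A model of 5 reads in replicate 2 may be missed at the depth of replicate 1, so a member seen in 1 library only does not show a difference.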
